A study of Mus musculus with 2 samples.

Results

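A mouse expression array carried, beside its probes for known transcripts, 16179 probes named only by a stretch of genome and a strand, such as chr1:175653557-175671940_R. Of these, 1032 (6.38%) were bright: their signal was at or above the 75th percentile of all non-control spots on both arrays of the study. They are described here as the bright region probes. They were chosen by their signal on these same arrays, so their levels are a description only. The other 39490 probes on the array, which carry transcript names or names of other kinds, were bright in 30.6% of cases. The bright region probes belonged to 669 combinations of region and strand, 613 distinct coordinates (17.3% of the 3540 on the array) and, once overlapping coordinates were merged, 526 separate stretches of genome.

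Bone marrow cells of C57BL/6 mice were grown for 4 days in medium with 5% FBS. One culture, labelled GM-CSF ONLY, received GM-CSF at 40 ng/ml, and the other, labelled GM-CSF + IL-6, received the same GM-CSF together with IL-6 at 40 ng/ml, so every cell in the study had seen GM-CSF. The labels do not say how many mice a culture came from. Each culture gave 1 total RNA sample on 1 Cy3-labelled Agilent array, and the arrays were compared to ask what IL-6 adds. With 1 array per condition there was no test and no replicate check. Counts of changed probes are counts past a stated fold, and each difference is between these arrays. The only error that could be given is the spread of a log2 ratio between repeated spots of the same probe, called the spot SD below; it was 0.06 for probes up to 4-fold over the brightness limit, 0.05 for probes 4-fold to 16-fold over it and 0.04 above that. It leaves out all variation between cultures, labellings and arrays.

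Much of a mammalian genome outside annotated genes is copied into RNA, and some of these transcripts are long noncoding RNAs that are spliced and polyadenylated as messenger RNAs are. Others are unprocessed read-through from a neighbouring gene, antisense transcripts, or pieces of genes missing from an annotation. Probes named by coordinates can look for such RNAs without assuming a transcript structure, and pairs of probe sets on the F and R strands ask which strand is copied. GM-CSF is the growth factor that drives bone marrow precursors towards granulocytes and macrophages, and IL-6 is an inflammatory cytokine that signals through STAT3. The cells grown here are used as a model of myeloid-derived suppressor cells, a population of immature myeloid cells known for damping T cell responses.

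No source used here names the genome build of the coordinates. On 7 of 20 chromosomes the last region ended beyond the last gene of the RefSeq table for GRCm38.p6, so these coordinates were not set against that table. Whether a region is truly intergenic, or lies in an exon, intron or UTR of a gene, was therefore not examined, and the regions are named by their coordinates alone. Probe sequences and the place of a probe within its region were not used here either. The files do not say whether an F probe detects RNA of the forward or of the reverse strand, so F and R are kept as names.

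The cultures carried the markers of the labelled lineage. All 10 myeloid markers looked at, among them S100a8, S100a9, Csf3r, Itgam and Csf1r, were well above background on both arrays, with scaled signals from 1265 to 427030 without IL-6. RNA of other marrow cells was also present. The marker lists of B cells (4 of 4), megakaryocytes (4 of 4), mast cells (4 of 4), T and NK cells (3 of 4) and stroma (3 of 4) held genes well above background on both arrays; the defining genes Ncr1 and Cxcl12 were not. The summed signal with IL-6 and without was 250.2 and 167.6 for stroma, where Sparc stood at 100.4 and 36.0 and Col1a1 at 68.5 and 75.1. It was 16054 and 14182 for mast cells, 30907 and 33654 for megakaryocytes, 5809 and 5861 for B cells, and 1644 and 1662 for T and NK cells. Single genes made up most of some sums: Pf4 (30226 and 32922) for megakaryocytes and Cd3e (1567 and 1581) for T and NK cells. Itga2b (273.8 and 251.6), Cd79a (345.7 and 303.8), Cd8a (22.8 and 21.6) and Col1a1 (68.5 and 75.1) went against the sum of their list. The other genes of these lists that were well above background went with it. In a mixed culture, fewer cells of a type and less RNA per cell cannot be told apart, and the part of these cell types in the region signals was not tested. The share of probes well above background was 57.9% with IL-6 and 59.1% without.

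The bright region probes covered a wide range of signal. All signals are scaled so that the 75th percentile of each array, the brightness limit, stands at 517. With IL-6 the lowest bright region probe was at 519, the median at 1453 and the highest at 207357; without IL-6 these values were 517, 1427 and 203568. The range was thus almost the same in both cultures, and over the 1032 probes the log2 levels of the arrays had a correlation of 0.995, a description over probes that share 2 libraries. Of these probes, 398 (38.6%) lay within 2-fold of the limit and 79 were at least 32-fold over it. As a group they were dimmer than the 12094 other bright probes, whose median was 2893 with IL-6 and 2941 without.

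**Figure D1:**
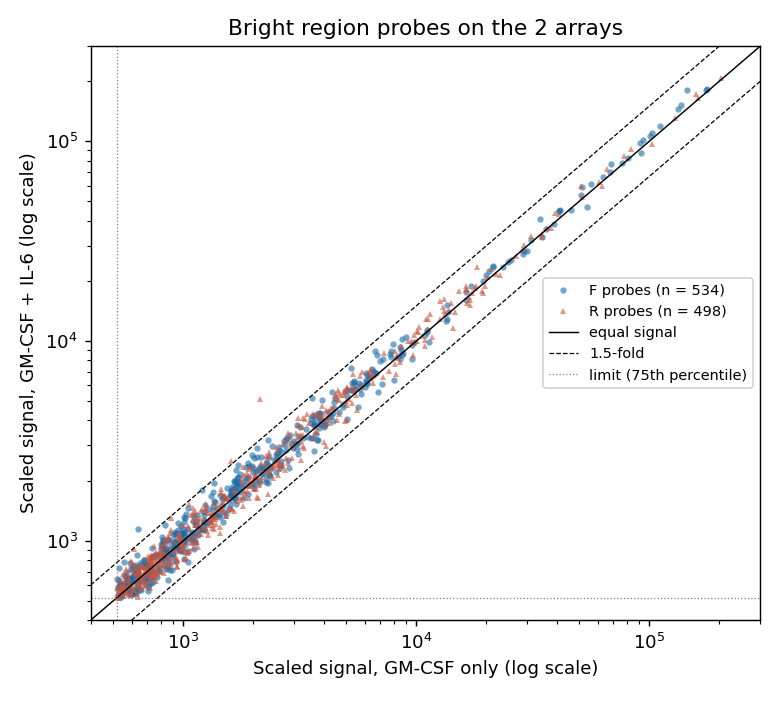
Scaled signal of each of the 1032 bright region probes without IL-6 (x axis) and with IL-6 (y axis), both on log scales, with circles for F probes and triangles for R probes. The points follow the line of equal signal from the limit at 517 to 203568 and 207357, and 3 points lie above the upper 1.5-fold line and none below the lower one.

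The brightest region probe of all was the 1 R probe of chr11:22681800-22707775, at 207357 with IL-6 and 203568 without. Next came an F probe of chr14:78924115-78938125 (181652 and 176656), an F probe of chr6:83368261-83407280 (181106 and 175625) and an R probe of chr12:73838608-73862621 (172758 and 158775). Probes differ in how well they bind, so these levels do not rank amounts of RNA. In the chr14 region 1 of 7 F probes was bright, and the only other one well above background on both arrays stood at 178 without IL-6. The chr12 region had 1 bright probe of 5 on the R strand and 1 of 5 on the F strand.

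Other very bright regions were bright with every probe. All 3 R probes of chr17:17481706-17482457 were bright, with signals without IL-6 of 40857, 83700 and 129512 and with IL-6 of 42989, 91026 and 130506. All 3 F probes of chr6:116123643-116124550 lay between 63146 and 101094 without IL-6 and between 65883 and 106544 with it. The 3 R probes of chr19:5801802-5802597 lay between 22874 and 102397 without IL-6 and between 21374 and 97408 with it. These regions are short, from 752 to 908 bases, and their strong signal was shared by neighbouring probes rather than resting on 1 of them.

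The 12 brightest probes were nearly level between the cultures. Their log2 ratios, IL-6 over GM-CSF only, ran from -0.07 at chr19:5801802-5802597 to 0.13 at chr6:116092274-116144199, except for an F probe of chr17:39982023-39983277. That probe stood at 179673 with IL-6 and 145665 without, a log2 ratio of 0.30 ± 0.04 (spot SD, 1 spot). The other F probes of this region did not share the difference. Their signals were 28363 against 28853 and 24829 against 24732, ratios of -0.02 and 0.01.

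The limit itself cut through a continuum. The 4 bright region probes nearest to it had a lower signal of the pair between 517.2 and 519.1, in regions such as chr12:103151385-103157796_R and chr2:181663381-181664097_F. The nearest 4 outside had 515.1 to 516.6, in regions such as chr5:33773842-33942967_R. A further 73 of the 16179 region probes passed the limit on 1 array only, with log2 ratios between -0.44 and 0.61. Of these, 47 passed with IL-6 and 26 without. No such count over the other probes is given, so this split is not a result about the regions. No bright region probe was saturated or marked as an outlier spot.

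Bright probes were spread over 20 chromosomes, but unevenly. On chr14, chr6 and chr17 they made up 11.0%, 10.9% and 9.90% of the region probes, and on chr9 and chr3 only 3.40% and 3.58%. The strands were close, with 534 of 8170 F probes (6.54%) and 498 of 8009 R probes (6.22%). The share was 4.52% in regions under 1 kb, 6.31% in those of 1 to 10 kb, 6.60% in those of 10 to 30 kb, 7.73% in those of 30 to 100 kb and 5.27% in longer ones. Regions often hold several probes, so probes of 1 region share its RNA and are not independent points.

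Adding IL-6 was followed by small shifts in this set. The median log2 ratio of the bright region probes was 0.05, with quartiles at -0.07 and 0.16 and the ends at -0.45 and 1.26. Signal was higher with IL-6 for 615 of the 1032 probes (59.6%). The other bright probes were centred slightly the other way, with a median of -0.02 and 43.9% above 0, so the region probes lay 0.06 above them on the log2 scale. They were also more spread, with an SD over probes of 0.18 against 0.13.

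At 1.5-fold or more, 3 bright region probes were higher with IL-6 (0.291%) and 0 were lower. The background was 1.46% higher and 0.885% lower among all 31516 probes well above background on both arrays, and 0.0744% and 0.0579% among the other bright probes. At 2-fold, 1 was higher (0.0969%) and 0 lower, against 0.301% and 0.165% of all probes well above background and 0.0579% and 0 of the other bright probes. The region probes that were well above background but below the limit numbered 5866; of them 176 (3%) were at least 1.5-fold higher and 97 (1.65%) lower, and these dimmer spots have larger spot SDs. At a lower bar of 1.2-fold, 92 bright region probes (8.91%) were higher and 38 (3.68%) lower, against 2.16% and 2.31% of the other bright probes and 9.16% and 7.81% of all probes well above background.

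**Figure D2:**
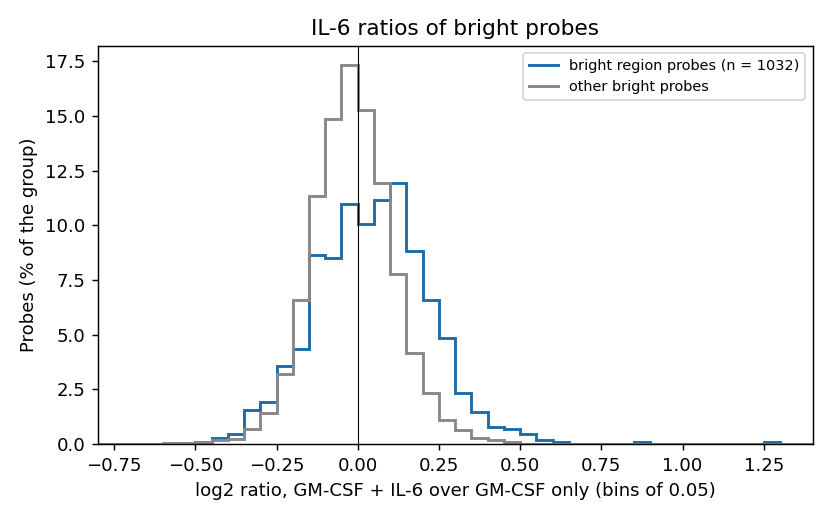
Share of probes (y axis, percent of each group) by log2 ratio of signal with IL-6 over signal without (x axis, bins of 0.05), for the 1032 bright region probes (blue) and the 12094 other bright probes (grey). The blue outline is wider and lies to the right of the grey one, with medians of 0.05 and -0.02, and reaches 1.26 at its right end.

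The largest difference was at an R probe of chr16:8738782-8830148. It stood at 5121 with IL-6 and 2139 without, a log2 ratio of 1.26 ± 0.05 (spot SD, 1 spot) or 2.39-fold. The other probes of the region that could be read did not share this size. The second bright R probe of the region was lower with IL-6, at 6849 against 8205 (-0.26), the 1 bright F probe was level, at 1910 against 1828 (0.06), and the 4 dimmer R probes measured on both arrays had ratios between -0.13 and 0.25.

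The second was the 1 bright F probe of 6 at chr6:52046805-52072744, at 1148 with IL-6 and 636 without (0.85 ± 0.06). None of the other 5 F probes there was well above background on both arrays. The third was the 1 bright R probe of 4 at chr4:35106125-35127700, at 2517 with IL-6 and 1605 without (0.65 ± 0.06). Again no other R probe there was well above background on both arrays. In these regions no second probe of the strand could be read on both arrays.

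Where the probe sat on the slide moved with the leading differences. In 10 of 336 tiles of the slide, each 16 rows by 12 columns, at least 4 probes other than region probes were 2-fold apart between the arrays. The chr16 and chr6 probes lay in such tiles, as did the fourth and the eighth highest ratios, at chr13:98528250-98551125_F (0.58) and chr5:52461266-52541416_R (0.53). The chr4 probe did not. Without the 57 bright region probes in such tiles or in the outermost rows and columns, 975 remained, 1 was at least 1.5-fold higher, 0 were 2-fold higher, and the median ratio was still 0.05. The part of slide position in the differences was not tested.

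The remaining 3 of the 8 highest ratios lay between 0.54 and 0.57. At chr2:172343878-172344212_R 1 of 3 probes was bright, at 912 with IL-6 and 613 without (0.57). At chr9:30529709-30589042_R 1 of 3 was bright, at 1298 and 889 (0.55), and a dimmer R probe of that region was also higher, at 117 and 96.8. At chr17:46972160-46997919_F the leading probe was at 5200 and 3565 (0.54), and the other 2 bright F probes were at 5699 and 5267 and at 21516 and 19871, ratios of 0.11 each. In 4 of the 8 regions with the highest ratios, the leading probe was the only bright one of its strand. Of all 1032 bright region probes, 402 were the only bright one of several and 75 were printed alone. The 4 of 8 is thus not a result about the highest ratios.

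Ratios at the low end were smaller, and in several regions every bright probe was lower with IL-6. The lowest was at chr1:175653557-175671940_R, where all 3 R probes were bright. Their signals were 2984 with IL-6 against 4082 without, 3104 against 4011 and 1658 against 2072, ratios of -0.45, -0.37 and -0.32 with spot SDs of 0.05 to 0.06. All 3 probes of chr8:72105642-72105922_R were lower too, at 1707 against 2320, 1636 against 2092 and 925 against 1100 (-0.44, -0.36 and -0.25). The 3 F probes of chr2:79517813-79518321, of which 2 were bright, ran from -0.43 to -0.33. The 3 F probes of chr10:96098058-96098623 ran from -0.37 to -0.11. At chr1:63168439-63172297_F, chr7:99882675-99883730_R and chr12:85252300-85253597_R the low probe was the only bright one of 3. Its ratio was -0.42, -0.35 and -0.34 in turn. The dimmer probes stood at -0.19 and 0.02 in the first region and at -0.30 and 0.05 in the second. In the third, the other probe that could be read stood at -0.04. None of the 8 lowest probes lay in a crowded tile.

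At chr13:108548345-108679004_R a probe at 1093 with IL-6 and 1439 without (-0.40) lay beside another bright R probe at 72894 and 65598 (0.15). The 4 dimmer R probes of that region were lower with IL-6, from -0.52 to -0.15. The nested region chr13:108653722-108654406_R had 3 bright probes, all lower, at 1149 against 1361, 884 against 1061 and 819 against 1032.

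How many probes of a region were bright went with the direction. On 594 combinations of region and strand with several probes, 402 (67.7%) had 1 bright probe, 192 had 2 or more and 63 had all of them bright. The 402 lone bright probes had a median log2 ratio of 0.10 and were higher with IL-6 in 69.9% of cases. The 199 probes from fully bright regions had a median of -0.03 and were higher in 41.7%, beside 43.9% of the other bright probes. These 199 share 63 combinations of region and strand on 62 coordinates, so they are not independent points. This contrast was not recomputed with 1 value per combination. Probes from partly bright regions (356) had a median of 0.04, and the 75 bright probes printed alone for their region had 0.04. The gap between lone and fully bright probes had the same sign in each of 6 bins of signal; in the bin 4-fold to 8-fold over the limit the medians were 0.14 and -0.10, and in the dimmest bin 0.06 and -0.05. The same sign also held in each of 5 bins of region length, and in the bin of the longest regions it rests on 12 and 3 probes.

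**Figure D3:**
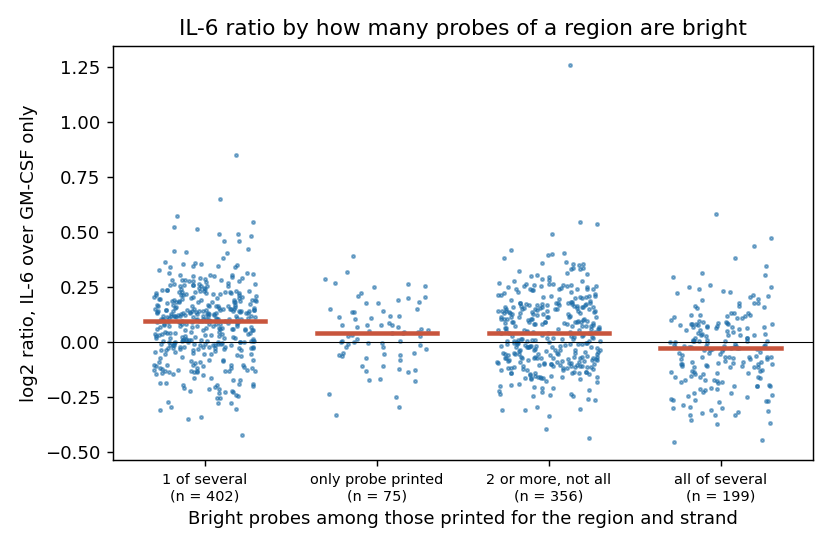
Log2 ratio, IL-6 over GM-CSF only (y axis), of each bright region probe by how many probes of its region and strand were bright (x axis), with the median as a red bar. The medians fall from 0.10 for the lone bright probe of several to -0.03 where all of several were bright, with wide overlap between the groups.

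The dimmer neighbours of lone bright probes went with them only loosely. Of the 1434 other probes in their regions and strands, 671 (46.8%) were well above background on both arrays, close to the 42.6% of all region probes. In 303 regions at least 1 such neighbour could be read, and there the bright probe had a median ratio of 0.08 and the neighbours 0.04. Bright probe and neighbours lay on the same side of 0 in 180 of 303 regions (59.4%), with a correlation of 0.18 over regions that share the same arrays. In the other 99 regions no neighbour was well above background on both arrays. Their bright probes had a median of 0.14, and 80.8% were higher with IL-6.

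Bright probes of 1 region and strand varied in level but less in ratio. In the 192 combinations with at least 2, the brightest was a median of 2.37-fold over the dimmest. Their ratios had a pooled SD within the region of 0.13, below the 0.18 over all bright region probes and above the spot SD. Of 103 combinations with at least 3 bright probes, 31 had all of them higher with IL-6, 26 all lower and 46 some of each, and their medians ran from -0.37 to 0.38.

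Merging overlapping coordinates gave 47 stretches with at least 5 bright probes, 5 of them with every bright probe lower with IL-6 and 8 with every one higher. The clearest low stretch was chr1:175653557-175672031, made of 3 overlapping coordinates whose probes may lie close together or overlap. All 9 bright probes were R probes and all were lower with IL-6, from -0.45 to -0.19, with a median of -0.31 or 1.24-fold. Their signals ran from 1432 to 5577 without IL-6 and from 1166 to 4538 with it. The 5 F probes of chr1:175654606-175672031 were well above background but dim, between 33.2 and 81.6 without IL-6, and their ratios went both ways, from -0.43 to 0.27. The neighbouring chr1:175705225-175717250 also had 5 bright R probes, all lower, at a median of -0.20; its brightest stood at 11628 with IL-6 and 14329 without. The 9 probes of the first stretch were spread over the slide, from row 41 to row 364 and from column 4 to column 152.

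Smaller decreases were shared at chr4:146507925-146532650, with 5 R probes from -0.18 to -0.10, and at chr6:40693617-40720167, with 5 F probes from -0.21 to -0.03. At chr17:26911032-26917047, 8 of 9 bright F probes were lower with IL-6, at a median of -0.09. At chr1:141070245-141076841 all 7 F probes were bright, with a median ratio of -0.14. None of the 8 R probes of these coordinates was bright, and the 6 that could be read stood between 24.6 and 85.0 without IL-6, with a median ratio of 0.38 at spot SDs of 0.22 or more.

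Shared increases were of a like size. At chr6:83541250-83560425 all 5 F probes were bright and higher with IL-6. Their signals were 2396 against 1724, 2673 against 1974, 2376 against 1914, 6198 against 5312 and 9295 against 8483, ratios from 0.13 to 0.47 with a median of 0.31 or 1.24-fold. At chr2:151992806-152025456, 5 F probes and 1 R probe were bright and all 6 higher, from 0.06 to 0.42, with the R probe at 15949 against 12600. At chr5:125190100-125209625 the 5 F probes ran from 0.08 to 0.25, and at chr6:145647711-145756861 4 F probes and 1 R probe ran from 0.15 to 0.49. None of the bright probes in these 4 stretches lay in a crowded tile.

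The most densely bright stretch barely moved. At chr17:39960567-39992817 all 20 region probes, 10 F and 10 R from 5 coordinates, were bright, with signals from 4017 to 145665 without IL-6 and from 4332 to 179673 with it. Their median ratio was 0.05, and 15 of the 20 were above 0. The F probes stood between 6238 and 145665 without IL-6 and the R probes between 4017 and 9736, so both strands were bright and the highest signals were on F. The 11 bright F probes of chr8:72663591-72673010 had a median of -0.01, with 6 below 0. At chr19:5771425-5848475, 10 probes had a median of 0.01 that hid a split. The 6 R probes of the short regions within it ran from -0.19 to 0.03. The 1 R probe named for the whole stretch and the 3 F probes ran from 0.22 to 0.28. Those F probes include probes of the short chr19:5795690-5797464.

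**Figure D4:**
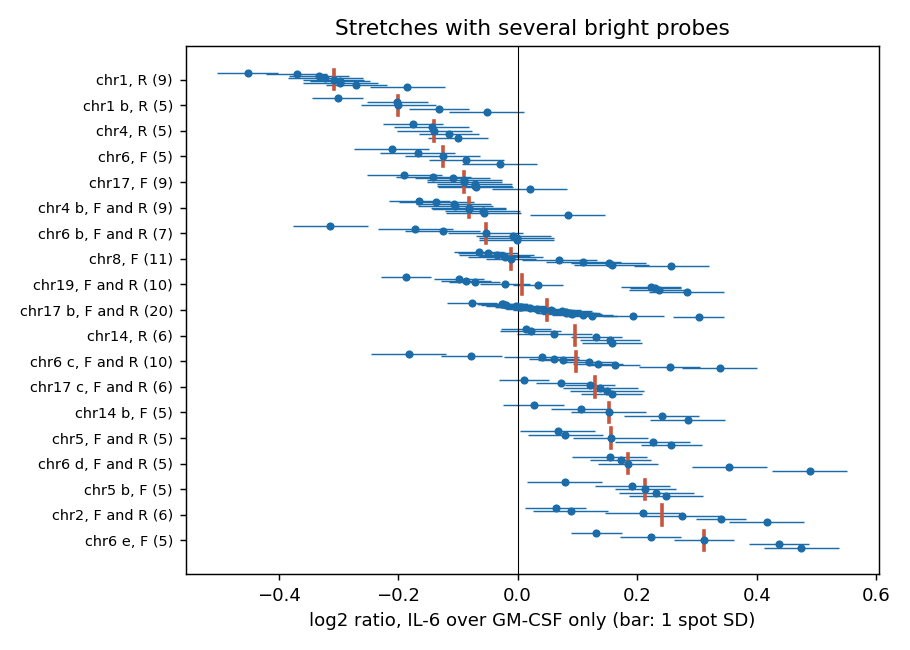
Log2 ratio, IL-6 over GM-CSF only (x axis), of each bright probe (blue, bar of 1 spot SD on each side) in the 19 stretches that had at least 5 bright probes all on 1 side of 0, or at least 9 bright probes; red marks are medians. Stretches are labelled by chromosome, a letter where a chromosome has several, strand and number of bright probes, and run from chr1 at -0.31 to chr6 at 0.31.

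Chromosomes were also compared, and those furthest from the 59.6% higher of the whole set are given here. On chr1, 19 of 64 bright probes (29.7%) were higher with IL-6, at a median of -0.11, and 14 of these 64 were from the neighbouring low stretches given above. On chr15, 27 of 31 (87.1%) were higher, at a median of 0.16, and on chr5, 59 of 71 (83.1%), at a median of 0.11. On the other chromosomes the share higher ran from 48.4% on chr8 to 70% on chr16. No count of other bright probes by chromosome is given. Probes of 1 chromosome share regions, so these counts describe the probes and not independent events.

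Both strands were printed for 1067 coordinates, while 1251 had F probes only and 1222 R probes only. Of the 1067, 362 had a bright probe on at least 1 strand: 166 on F only, 140 on R only and 56 on both. Of the 222 bright on F, 25.2% were bright on R, against 18.4% of all 1067; of the 196 bright on R, 28.6% were bright on F, against 20.8%. A strand was thus bright somewhat more often where the other one was. The 306 bright on 1 strand only were most of the 362. With such low shares over all 1067, that majority is not a result about the regions. The dimmer strand often gave signal too: in 250 of the 306 one-strand coordinates it held a probe well above background on both arrays. Of all 1067 coordinates, 641 had such a probe on each strand.

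An F and an R probe differ in sequence and so in how well they bind, and the F minus R differences below are differences in signal, not in RNA. By the brightest probe of each strand, the median gap over the 362 coordinates was 4.69 on the log2 scale or 25.8-fold, and 160 were at least 32-fold apart. By the median probe of each strand the gap was 1.87 or 3.66-fold, because the dim probes of each strand then count. Among the 56 coordinates bright on both strands the gap of the brightest probes was 2.10 or 4.29-fold.

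Ranked by the median probe of each strand, the widest gap in favour of F was at chr11:35805295-35817263, with 1 probe a strand. By the brightest probes some gaps were wider, among them 2701-fold at chrX:18744367-18853992 and 2094-fold at chr14:78924115-78938125. At chr11:35805295-35817263 the F probe stood at 38302 with IL-6 and 38895 without. The R probe there stood at 32.7 and 21.1, a gap of 1471-fold. At chr4:56013597-56020622 the F probe stood at 58948 and 51191 and the R probe at 40.5 and 46.9, a gap of 1260-fold. At chr4:141527564-141547339 the F probe stood at 8486 and 6798 and the R probe was not well above background, so F was at least 502-fold brighter. With several probes, the 3 F probes of chr5:96591892-96606467 stood between 25464 and 80971 without IL-6. Of the 4 R probes there, 3 were well above background, between 107.3 and 1516, and 2 of them were bright. At chr14:26973425-26986650 the 3 F probes stood between 205 and 34499 and the 3 R probes between 24.4 and 82.7. A region on chr18 was the other one of the widest 6.

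In favour of R, by the same ranking, chr5:20457725-20477550 had an R probe at 9991 with IL-6 and 10094 without and an F probe at 26.9 and 24.1, a gap of 395-fold. At chr7:128341797-128414692 all 5 R probes were bright, between 6517 and 19802 without IL-6, and the 4 F probes that could be read stood between 35.9 and 79.7. At chr4:136856064-136877219 all 5 R probes stood between 14695 and 61059, and 3 of 5 F probes could be read, between 99.0 and 431. At chr1:52507332-52514490, 3 of 4 R probes stood between 3260 and 5317 while the 1 F probe was not above background, so the median R probe was at least 216-fold brighter. At chr11:22681800-22707775 the gap between strand medians was 294-fold, with F probes at 3695 and 3169 and at 156 and 131 beneath the brightest R probe of the set; from the brighter F probe the gap was 60.0-fold. At chr14:49314574-49358174 the R probe stood at 28422 and 28508 and the 1 bright F probe of 2 at 1180 and 976.

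**Figure D5:**
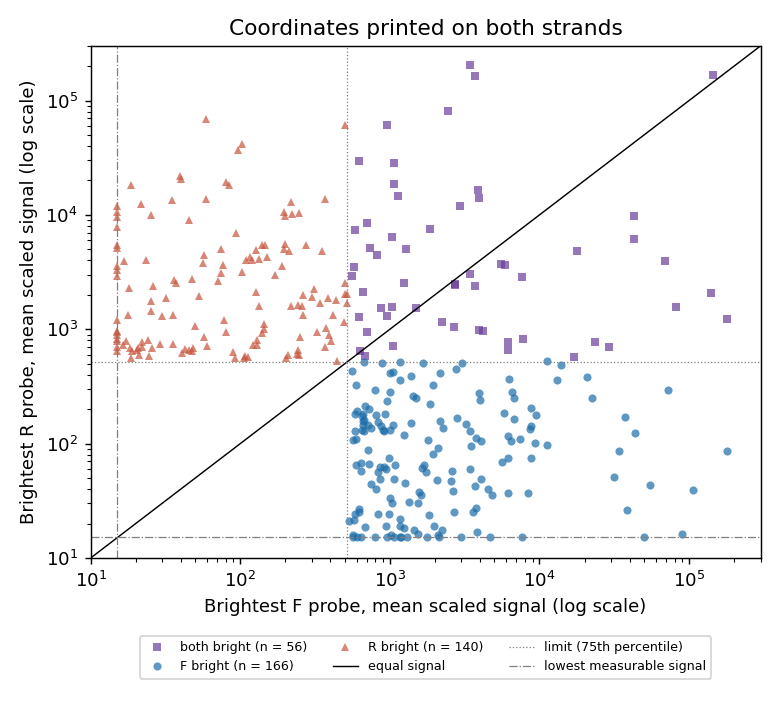
Signal of the brightest F probe (x axis) and the brightest R probe (y axis) of each of the 362 coordinates printed on both strands with a bright probe, as the geometric mean of both arrays on log scales; signals below the lowest measurable one are drawn at 15.1. Most points lie in the arms where only F (166) or only R (140) passes the limit at 517, and 56 squares pass it on both.

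The 6 coordinates bright on both strands with the brightest dimmer strand were of several kinds. At chr12:73838608-73862621 the brightest probes were 1.15-fold apart, F at 151709 with IL-6 and 136574 without and R at 172758 and 158775, while the strand medians were 10.3-fold apart. Each was 1 of 5 on its strand, and no other probe of the region passed the limit. At chr17:39960567-39992817 all 4 F and all 5 R probes of the long region were bright. At chr5:34696192-34722842 the brightest F probe stood at 44505 and 41100 and the brightest R probe at 6717 and 5741. At chr14:33923944-34003394, 1 of 9 F probes was bright, at 18758 and 17183, with 5 of 9 R probes up to 5100 and 4572. At chr12:119825125-119850750, with 1 probe a strand, F stood at 70373 and 67683 and R at 4289 and 3595. At chr2:151992806-152025456 the F probes reached 4016 and 3843 and the R probe 15949 and 12600.

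The balance of strands changed little with IL-6. For the 56 coordinates bright on both strands, the change in F minus R between the arrays had a median of 0.01 and an SD of 0.23, from -0.44 to 0.61. It reached 1.5-fold in 2 of 56 (3.57%), against 55 of the 641 coordinates measured on both strands (8.58%) and 15 of the 306 measured on both with a bright strand (4.90%). Both were towards F. At chrX:90997595-91009570 the 1 bright F probe had a ratio of 0.46 and the 3 bright R probes a median of -0.15. At chr15:79764481-79809909, with 1 bright probe a strand, the ratios were 0.46 and -0.15. When every probe above background was used, these changes were -0.17 and 0.10, so neither held over all probes of the region. At chr6:135294099-135300310 3 bright F probes had ratios from 0.24 to 0.26 while the 1 R probe stood at 879 with IL-6 and 1034 without (-0.23).

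Over the same 56 coordinates the F and R ratios had a correlation of 0.01, a description over regions that share the same arrays. Both strands were higher with IL-6 in 31, both lower in 5, and they differed in sign in the rest, with medians of 0.10 on F and 0.07 on R.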

How the data were processed

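The members and lists were chosen with earlier results of these data known. Per the file headers, the authors extracted spot intensities with Feature Extraction from Agilent, version 10.7.1.1; the deposited processed signals are linear intensities. The deposited value table holds log2 values by the authors, used as an alternative only. Each array had 59305 non-control spots; 255 outlier spots were dropped and repeated spots averaged, leaving 55669 probes. Values are log2 processed signal minus the array's 75th percentile (486.2 with IL-6, 549.7 without); printed signals are scaled back to 517, the geometric mean of both. Spot SDs came from 399 probes with at least 5 spots. A fold against a probe not well above background uses the lowest signal that was (14.6 with IL-6, 15.7 without, before scaling) and is a lower bound. Marker genes were matched by RefSeq accession (26577 of 28109 probes with one). One further marker list is not reported here. Named regions were the 12 brightest probes, the 8 highest and 8 lowest ratios, members 2-fold apart, the 6 widest strand gaps each way, the 6 brightest on both strands, the 6 coordinates with most bright probes, and 4 probes on each side of the limit; stretches and other regions were chosen after their values were seen. Work used Python 3.11.15, numpy 2.4.6, pandas 2.3.3 and limma 3.58.1 in R 4.3.3, and was tested on simulated data. The number of arrays limits the precision.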

Additional observations from a re-analysis of the deposited data

How the results depend on the processing

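No paired analysis was possible because the cultures were hybridised to 1 array each. The median ratio of the bright region probes stayed between 0.04 and 0.06 under quantile normalization, median centring, normexp background correction, the authors' value table, outlier spots kept, probes in crowded tiles and outermost spots left out, limits at the 80th and 70th percentiles, and 1 value per region and strand. Under quantile normalization, median centring, normexp and the authors' table it lay 0.06 to 0.07 above the other bright probes, and 59.0% to 61.8% of probes were higher with IL-6. Without crowded tiles and outermost spots the count at 1.5-fold higher was 1 and at 2-fold 0; with 1 value per region and strand the 2-fold count was 0. The counts lower with IL-6 were 0 under each of these settings. Coordinates bright on both strands numbered 32 at the 80th percentile, 105 at the 70th, and 7 with 1 value per region and strand. The median F minus R gap of strand medians, 1.87, became 0.99 with normexp, whose offset of 50 compresses dim signals. It became 2.09 without crowded tiles and outermost spots, 2.08 and 1.75 at the 80th and 70th percentiles, and 5.39 with 1 value per region and strand. Changes of F minus R of at least 1.5-fold numbered 1 with normexp, 1 at the 80th percentile and 0 with 1 value per region and strand. Of alternatives chosen after seeing the data, the brightest probe of each strand gave a gap of 4.69, and fully bright regions alone a median ratio of -0.026. Of 164 recomputed ratios of named probes, 24 moved by more than 1 spot SD, and 9, all of probes near 0, changed sign.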
